A study of Populus tremula x Populus alba with 7 samples.

Results

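The peak lists of PtrC2H2ZF1 and PtrC2H2ZF2, the C2H2 zinc finger transcription factors (TFs) of a poplar ChIP-seq series, were compared site by site. All peaks of both lists were taken, 575 of PtrC2H2ZF1 and 607 of PtrC2H2ZF2, which makes 1182 of the 9442 peaks in the 6 lists of the series. Peaks were paired when they shared at least 1 bp. Each list came from 1 library, so every value below describes these libraries, and no test between the TFs was possible.

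The series profiled 6 TFs in leaves of tissue-cultured plants of the hybrid poplar Populus tremula × alba. Each TF carried GFP and was driven by the CaMV35S promoter, and it was introduced into the leaves with Agrobacterium by vacuum infiltration and expressed transiently, so the level of the TF was set by that promoter and by the infiltration, not by the gene's own control. As far as the labels say, both zinc finger libraries shared this background and differed only in the TF that was introduced. Cross-linked chromatin was precipitated with a monoclonal antibody against GFP, and input chromatin without antibody was the control for peak calling. The other 4 lists, used here only to place the zinc finger sites, are those of PtrARF5a (an auxin response factor), PtrBLH (a BEL1-like homeodomain protein), PtrNAC127 (a NAC domain protein) and PtrCORONA (a class III homeodomain leucine zipper protein).

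C2H2 zinc finger proteins fold short stretches of the chain around a zinc ion held by cysteine and histidine side chains, and the fingers read bases in the major groove of DNA. In plants they form a large TF family that acts in development and in responses to stress, and many members repress transcription. A peak of such a ChIP-seq library is a stretch of the genome where reads pile up above the input, its summit is the base with the highest pile-up, and its fold enrichment is the pile-up at the summit relative to the control.

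The plasmids of both TFs held the coding sequence without its stop codon, amplified from PtrC2H2ZF1 (Potri.010G209400) and PtrC2H2ZF2 (Potri.014G066200). The cloning primers are shown here since they mark the ends of the coding DNA that was added to the leaves. Lower case is the added restriction site, and capitals are the bases after it.
PtrC2H2ZF1 forward, XbaI: tctagaATGAAGAGAGGTCTGCACGAGAG
PtrC2H2ZF1 reverse, AscI: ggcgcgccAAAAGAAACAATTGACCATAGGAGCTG
PtrC2H2ZF2 forward, XbaI: tctagaATGGCTTTGCTTGTGGATCAAC
PtrC2H2ZF2 reverse, AscI: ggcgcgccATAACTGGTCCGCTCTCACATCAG
After the site, each forward primer begins with the ATG start codon. Each reverse primer begins with an A, as all 6 reverse primers of the series do, and the primers were not compared with a coding sequence here.

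Both lists looked alike before any pairing. PtrC2H2ZF1 had 535 peaks on the 19 chromosomes and 40 on scaffolds, and PtrC2H2ZF2 had 567 and 40. Median width was 553 and 551 bp, median fold enrichment 27.9 and 27.1, and the highest fold enrichment 68.2 and 67.4. The smallest width was 297 bp in both lists, and 17 and 27 peaks had exactly that width. The lists hold no read totals. Sequencing depth is stated by the study only as a rough figure common to the samples, before mapping, but the reads left in each library after filtering are unknown here, and a site missing from a list cannot be told apart from a site with signal under the threshold. In all 6 libraries the antibody was directed at GFP, and the samples of the series include no library of GFP without a TF. At sites shared by the lists, signal of the TFs and signal common to GFP libraries cannot be told apart.

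Nearly every PtrC2H2ZF1 site had a PtrC2H2ZF2 peak over it, and nearly always a single one. Of the PtrC2H2ZF1 peaks, 561 were paired (97.6%, exact 95% binomial interval 95.9 to 98.7%), and of the PtrC2H2ZF2 peaks, 557 (91.8%, 89.3 to 93.8%). Such intervals cover counting error only. The paired peaks formed 557 groups, of which 553 held 1 peak of each list. In the other 4 groups, 2 PtrC2H2ZF1 peaks lay under 1 PtrC2H2ZF2 peak, and the reverse was seen in 0 groups. The 553 pairs are described first, then the 4 merged groups, then the 14 and 50 peaks without a partner.

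The summits of paired peaks lay close to each other. The median distance between the PtrC2H2ZF1 and the PtrC2H2ZF2 summit was 6 bp (95% interval of the median 5 to 8 bp, n = 553 pairs), with quartiles at 2 and 16 bp. In 53 pairs both libraries had their summit at the same base. The distance was at most 10 bp in 351 pairs (63.5%), at most 25 bp in 468 (84.6%) and at most 50 bp in 517 (93.5%). Offsets lay on both sides: the PtrC2H2ZF2 summit had the higher coordinate in 270 pairs and the lower one in 230, and the median signed offset was 0 bp.

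**Figure D1:**
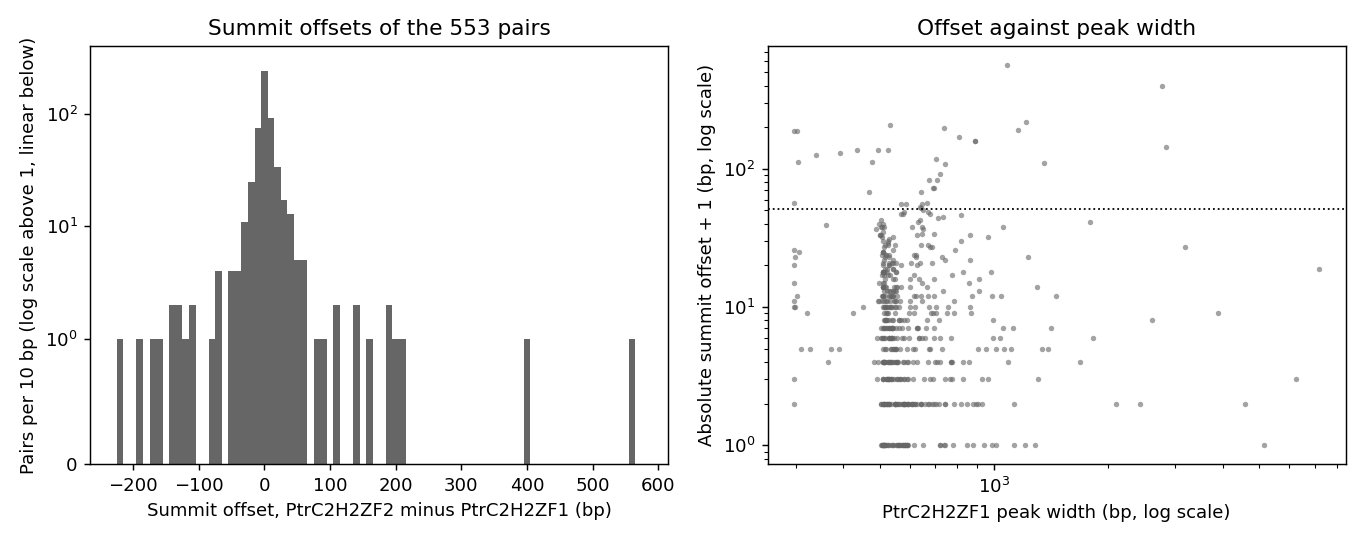
Left, number of pairs (log scale above 1, linear below) by summit offset, PtrC2H2ZF2 minus PtrC2H2ZF1, in 10 bp bins. Right, absolute offset plus 1 bp against the width of the PtrC2H2ZF1 peak (both log scales), 1 point per pair, with the dotted line at an offset of 50 bp. Offsets gathered around 0 bp, and 36 of the 553 pairs lay above the line, up to 564 bp.

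Strong sites had the closest summits. Among pairs ranked 1 to 100 by PtrC2H2ZF1 fold enrichment the median offset was 4.5 bp, among pairs 301 to 400 it was 7 bp, and among the last 53 pairs it was 9 bp. The share with an offset over 50 bp had no such order, since 9 of the first 100 pairs and 7 of the last 53 were that far apart. The 36 pairs with an offset over 50 bp had a median PtrC2H2ZF1 width of 655 bp, against 553 bp in the other 517, and a similar median fold enrichment (27.7 and 28.3).

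At several of these sites, the summits of the other TFs fell on the base that one zinc finger library chose and not on the other. The pair with the largest offset lay on chromosome 15, from 4291746 to 4292827 in PtrC2H2ZF1, with summits 564 bp apart and fold enrichments of 11.6 and 8.27. There the PtrARF5a and PtrBLH summits lay 30 and 10 bp from the PtrC2H2ZF1 summit, and the PtrNAC127 and PtrCORONA summits 11 and 0 bp from the PtrC2H2ZF2 summit. PtrARF5a had 2 peaks at this site, and the summit given is that of the peak with the higher fold enrichment. With that summit, the 6 lists fell into a pair of groups of 3 lists each.

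A similar split was seen in one of the strongest sites of PtrC2H2ZF2, on chromosome 5 from 24527714 to 24528924. The fold enrichment was 46.6 in PtrC2H2ZF1 and 65.7 in PtrC2H2ZF2, and the summits were 216 bp apart. The PtrARF5a summit lay 2 bp from that of PtrC2H2ZF1, whereas those of PtrBLH, PtrNAC127 and PtrCORONA lay 7, 3 and 10 bp from that of PtrC2H2ZF2. On chromosome 2, from 5322122 to 5322859, all 4 other summits lay within 18 bp of the PtrC2H2ZF2 summit, and PtrC2H2ZF1 was the one apart, by 197 bp. On chromosome 17, from 15098172 to 15099330, the PtrBLH, PtrNAC127 and PtrCORONA summits lay 3, 2 and 0 bp from the PtrC2H2ZF1 summit, and the PtrC2H2ZF2 summit was 190 bp away.

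Over the 36 pairs, the other 4 lists gave 136 summits, taking the peak with the highest fold enrichment where a list had several. Of these, 33 lay within 25 bp of the PtrC2H2ZF1 summit and 57 within 25 bp of the PtrC2H2ZF2 summit, while 46 were near neither. In 13 of the 36 pairs, both zinc finger summits had a summit of another TF within 25 bp. The broad site on chromosome 15 from 6328105 to 6330865 showed a spread of positions. It ranked 1 in PtrC2H2ZF1 and 5 in PtrC2H2ZF2, with widths of 2761 and 2759 bp, yet its zinc finger summits were 395 bp apart. The PtrCORONA summit lay 3 bp from that of PtrC2H2ZF1, the PtrNAC127 summit 184 bp from that of PtrC2H2ZF2, and the PtrARF5a and PtrBLH summits 1404 and 1399 bp from that of PtrC2H2ZF1.

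The outlines of the peaks matched as closely as their summits. Starts and ends each differed by a median of 2 bp, and in 432 of 553 pairs (78.1%) both edges lay within 10 bp. The overlap was a median of 99.2% of the stretch covered by both peaks. The width ratio, PtrC2H2ZF2 over PtrC2H2ZF1, had a median of 1.002 (95% interval of the median 1.002 to 1.003), and 494 pairs (89.3%) had a ratio between 0.95 and 1.05. The PtrC2H2ZF2 peak was the wider in 316 pairs, the PtrC2H2ZF1 peak in 187, and 50 pairs were equal. All 11 pairs with a PtrC2H2ZF1 peak over 2000 bp also had a PtrC2H2ZF2 peak over 2000 bp.

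Widths came apart at weak sites. Widths within 5% of each other were found in 96 of the first 100 pairs by PtrC2H2ZF1 fold enrichment, in 78 of pairs 401 to 500 and in 31 of the last 53. An edge differed by over 100 bp in 41 pairs, whose median fold enrichment was 8.76 in PtrC2H2ZF1 and 8.84 in PtrC2H2ZF2. In 32 of these, a single edge moved, and the opposite edge differed by a median of 11 bp. The 50 moved edges had a median shift of 201.5 bp, and 24 of them shifted by 190 to 240 bp. Their summits mostly stayed in place, within 25 bp in 29 of the 41 pairs.

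The pair with the largest ratio lay on chromosome 2 from 11887177 to 11887473 in PtrC2H2ZF1. It was 297 bp wide there and 607 bp wide in PtrC2H2ZF2, with fold enrichments of 5.80 and 12.6 and summits 14 bp apart. On chromosome 13, the peak that starts at 11937412 was 514 bp wide in PtrC2H2ZF1 and 993 bp wide in PtrC2H2ZF2, although its fold enrichment was lower in PtrC2H2ZF2 (15.7 and 13.4). The opposite case was on chromosome 12, from 10161184 to 10161703, where the widths were 520 bp in PtrC2H2ZF1 and 300 bp in PtrC2H2ZF2, and the fold enrichments 14.3 and 6.71. On chromosome 17, from 16021919 to 16022434, the widths were 516 and 297 bp, with a common start, ends 219 bp apart and summits 7 bp apart.

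The order of the sites by fold enrichment was also nearly one and the same. Spearman's rho across the 553 pairs was 0.981 for fold enrichment, and 0.992 for −log10 q, the caller's significance of a peak. Pairs are sites of the same libraries and not replicates, so rho is given as a description. The samples of the series include a single input, and the part of a control common to both lists in rho was not tested. The median pair differed by 15 places between the rankings, and 90% of pairs by at most 51. Of the 10 highest sites of each list 8 were shared, of the 100 highest 88, and of the 200 highest 190. The ratio of fold enrichment, PtrC2H2ZF2 over PtrC2H2ZF1, had a median of 1.03 and lay between 0.824 and 1.25 in the central 90% of pairs.

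**Figure D2:**
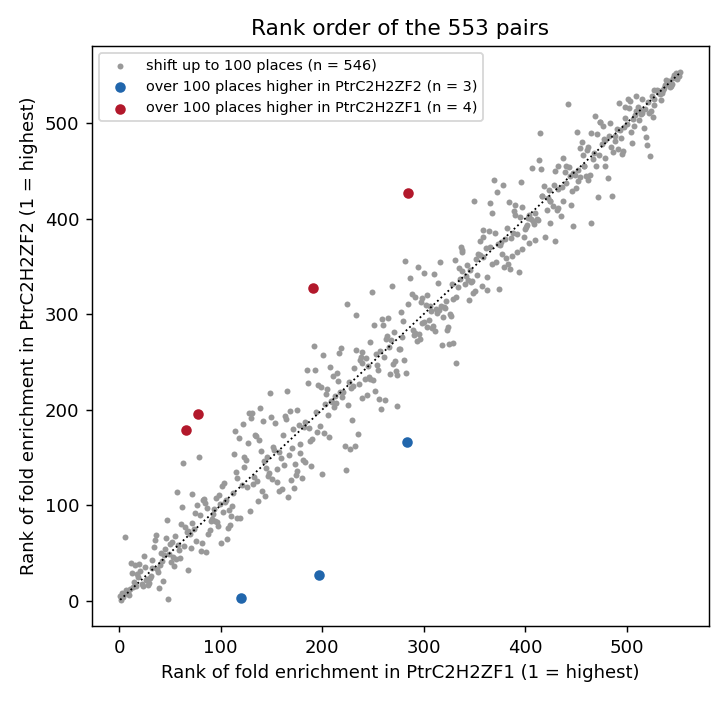
Rank of fold enrichment within the 553 pairs (1 is the highest) in PtrC2H2ZF1 (x) and PtrC2H2ZF2 (y), 1 point per pair, with the line of equal rank dotted. The points followed the line, and 7 pairs lay over 100 places off it, 3 higher in PtrC2H2ZF2 and 4 higher in PtrC2H2ZF1.

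The 5 sites with the best mean rank were by that choice high in both lists, and they ranged from compact to broad. The sites ranked 2 and 3 in PtrC2H2ZF2 were not among them. Their fold enrichments were 65.7 and 65.5 in PtrC2H2ZF2 and 46.6 and 38.9 in PtrC2H2ZF1. The best mean rank belonged to a site on chromosome 12, from 1082447 to 1083025, which was enriched 67.4-fold in each library, with widths of 579 and 578 bp and summits 7 bp apart. On chromosome 5, from 20441515 to 20442922, a broader peak of 1408 and 1405 bp ranked 4 in both lists, with fold enrichments of 62.0 and 65.5. On chromosome 13, the sites from 10423980 to 10424568 and from 12322672 to 12323284 had fold enrichments of 63.4 and 60.7 and of 61.6 and 63.1, with summits 0 and 1 bp apart. The broad site on chromosome 15 given above, with fold enrichments of 68.2 and 65.0, had the second best mean rank.

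Rank shifts of over 50 places were found in 57 pairs, 23 of them higher in PtrC2H2ZF2 and 34 higher in PtrC2H2ZF1. Of these 57 pairs, 10 had summits over 50 bp apart, against 26 of the other 496. The largest rise toward PtrC2H2ZF2 was on chromosome 1, from 43630221 to 43631108, at rank 197 of the pairs in PtrC2H2ZF1 and 27 in PtrC2H2ZF2. Its fold enrichment was 33.5 and 53.5, and its summits were 158 bp apart within nearly identical outlines (888 and 897 bp). The site on chromosome 17 from 15098172 to 15099330 went from rank 120 to rank 3, with fold enrichments of 38.9 and 65.5. On chromosome 14 the peak from 3218097 to 3218613 went from rank 284 to rank 166, with fold enrichments of 27.7 and 36.9, and here the summits were 22 bp apart.

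In the opposite direction, the site on chromosome 3 from 20660512 to 20661080 fell from rank 285 in PtrC2H2ZF1 to 427 in PtrC2H2ZF2, with fold enrichments of 27.7 and 16.6. The site on chromosome 1 from 3120188 to 3120708 had ranks of 191 and 327, and its summits were 1 bp apart. On chromosome 3, from 18722087 to 18722777, ranks were 78 and 195, and on chromosome 8, from 4854672 to 4855372, they were 66 and 179. Of the 7 pairs with a shift over 100 places, 4 had summits over 50 bp apart. All 7 were overlapped by a peak in each of the other 4 lists, as were 512 of all 553 pairs. With 1 library per TF, a shift between the TFs and a shift between the libraries cannot be told apart.

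The 4 merged groups were stretches where PtrC2H2ZF1 had a short gap that PtrC2H2ZF2 bridged. The gaps between the 2 PtrC2H2ZF1 peaks were 90, 128, 190 and 102 bp. The longest group lay on chromosome 2 from 18345722 to 18354409. It had PtrC2H2ZF1 peaks of 3310 and 5288 bp with fold enrichments of 45.5 each, and 1 PtrC2H2ZF2 peak of 8686 bp, the widest of its list, with a fold enrichment of 48.7. PtrBLH, PtrNAC127 and PtrCORONA each had 2 peaks there, divided at the same place as PtrC2H2ZF1, and PtrARF5a had 3.

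On chromosome 13, from 9588855 to 9591407, the PtrC2H2ZF1 peaks had fold enrichments of 39.0 and 50.5 and the PtrC2H2ZF2 peak 39.9. Here PtrNAC127 and PtrCORONA each overlapped both PtrC2H2ZF1 peaks with a single peak, as PtrC2H2ZF2 did, whereas PtrBLH was divided as PtrC2H2ZF1 was. PtrNAC127 and PtrCORONA each had a second peak, however, which began at 9591357 and 9591391, inside the end of the PtrC2H2ZF2 peak. The third group, on chromosome 13 from 14789923 to 14791624, was weak, with PtrC2H2ZF1 fold enrichments of 1.72 and 4.05 against 4.26 in PtrC2H2ZF2, and PtrNAC127 had no peak in it. The fourth, on chromosome 14 from 6428339 to 6429853, had fold enrichments of 34.1 and 33.6 in PtrC2H2ZF1 and 34.5 in PtrC2H2ZF2, and each other list had 2 peaks. Within the groups, the PtrC2H2ZF2 summit lay 8, 15, 6 and 12 bp from a PtrC2H2ZF1 summit.

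**Figure D3:**
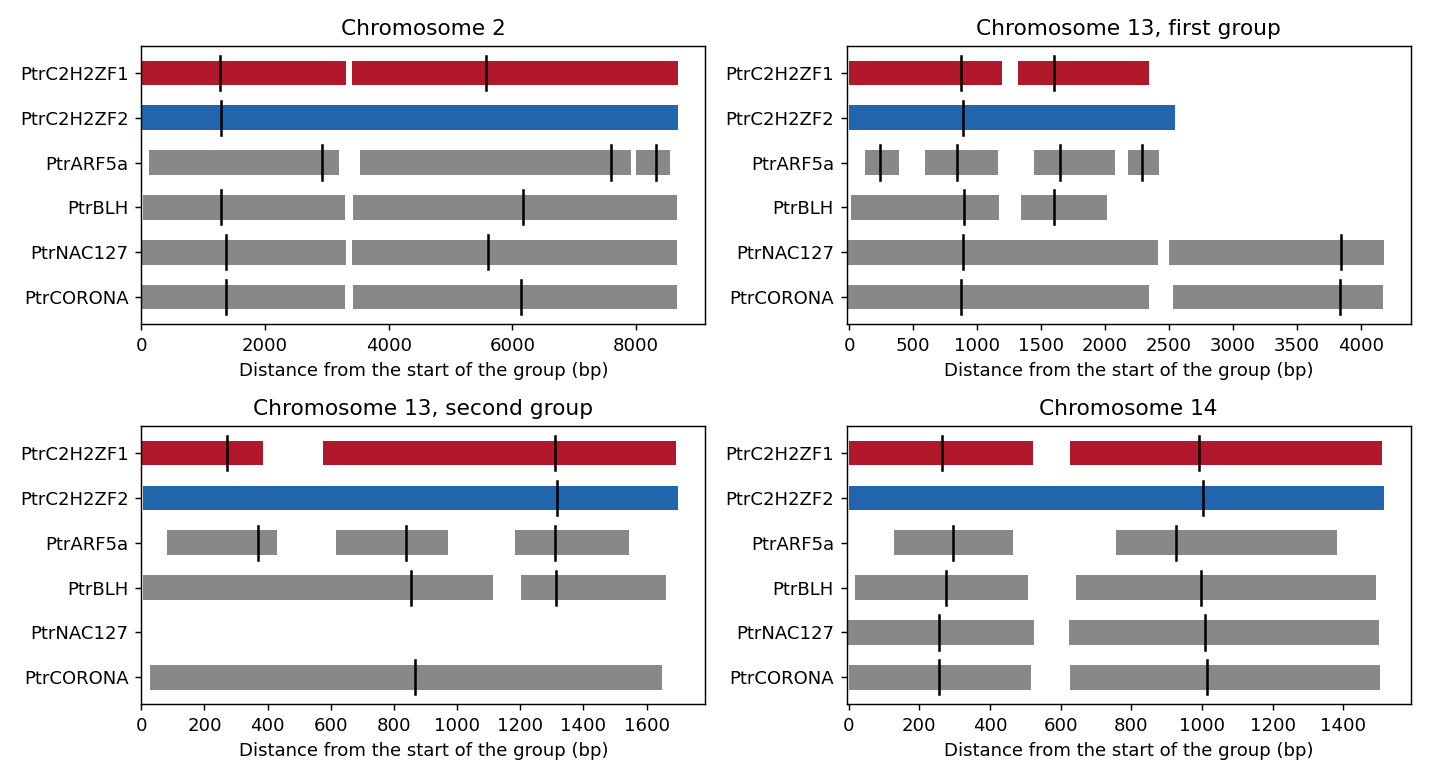
Peaks of all 6 lists (bars) and their summits (black ticks) in the 4 merged groups, by distance from the start of the group in bp. PtrC2H2ZF1 had 2 bars and PtrC2H2ZF2 1 in every panel, and the gaps in PtrC2H2ZF1 were 90 to 190 bp long.

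Most pairs lay at sites with a peak in all 6 lists. A peak of each of the other 4 lists lay over 512 of the 553 pairs, 26 pairs were held by 3 of the other lists, 6 by 2, 8 by 1 and 1 by none. PtrARF5a covered 543 pairs, PtrCORONA 541, PtrBLH 534 and PtrNAC127 528. The 41 pairs that were missing from at least 1 list were weak, with a median fold enrichment of 4.50 in PtrC2H2ZF1 and 4.78 in PtrC2H2ZF2, against 29.6 and 30.6 in the 512. Even so, their summits were a median of 8 bp apart, against 6 bp, and rho of fold enrichment was 0.940, against 0.976. Widths within 5% were found in 23 of the 41 and in 471 of the 512.

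The pairs outside the common set were of different kinds according to the list that lacked them. In 16 pairs PtrNAC127 had a peak and PtrBLH had none. These were narrow sites with a moderate fold and a weak significance, with a median fold enrichment of 6.89, a median −log10 q of 8.48 and a median width of 303 bp in PtrC2H2ZF1, and 6.67, 9.10 and 335 bp in PtrC2H2ZF2. In 22 pairs PtrBLH had a peak and PtrNAC127 had none. These had a lower fold and a higher significance, with a median fold enrichment of 2.81 and a median −log10 q of 23.2 in PtrC2H2ZF1, 3.19 and 25.3 in PtrC2H2ZF2, and median widths of 527.5 and 554.5 bp.

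Of the 22 pairs with PtrBLH and without PtrNAC127, 8 lay on chromosome 13 and 5 on chromosome 11. Each of these chromosomes had a stretch with several low peaks next to each other, picked out after its values had been seen. On chromosome 11, from 7192244 to 7198382, PtrC2H2ZF1 had 5 peaks with fold enrichments from 1.99 to 2.83, and all were paired. In the same stretch PtrC2H2ZF2 and PtrBLH had 6 peaks each, PtrARF5a and PtrCORONA 1 each and PtrNAC127 had 0. On chromosome 13, from 14751193 to 14874400, PtrC2H2ZF1 had 11 peaks, PtrC2H2ZF2 14, PtrBLH 19, PtrARF5a 11, PtrCORONA 9 and PtrNAC127 1. Median fold enrichment in that stretch was 2.80 in PtrC2H2ZF1 and 2.41 in PtrC2H2ZF2.

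A single pair was found in the zinc finger lists and in no other. It lay on chromosome 1, from 5709647 to 5709953 in PtrC2H2ZF1 and from 5709627 to 5709940 in PtrC2H2ZF2. Its fold enrichment was 4.0 and 5.01, its −log10 q 16.0 and 23.8 and its widths 307 and 314 bp, and its summits lay 24 bp apart.

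Unpaired peaks were weak and narrow in both lists. None of the 500 highest PtrC2H2ZF1 peaks lacked a PtrC2H2ZF2 partner, and the 14 unpaired peaks all ranked between 501 and 575. In PtrC2H2ZF2, the 400 highest peaks were all paired, 3 of the peaks ranked 401 to 500 were not, and the remaining 47 ranked lower. Unpaired PtrC2H2ZF1 peaks had fold enrichments from 2.86 to 9.40 (median 4.36) and a median width of 297 bp, the smallest in the list. Unpaired PtrC2H2ZF2 peaks had fold enrichments from 1.58 to 10.8 (median 5.81) and a median width of 316.5 bp, and 22 of the 50 were 297 bp wide. Paired peaks had a median fold enrichment of 28.4 in PtrC2H2ZF1 and 29.1 in PtrC2H2ZF2.

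Several unpaired peaks stood at one fixed value near the threshold. In PtrC2H2ZF1, 5 of the 14 had a fold enrichment of 3.88 with a −log10 q of 4.37, and in PtrC2H2ZF2, 6 of the 50 had 3.89 with 4.57. The lowest −log10 q in the lists was 4.26 in PtrC2H2ZF1 and 3.71 in PtrC2H2ZF2. Only 3 unpaired PtrC2H2ZF2 peaks lay under the lowest value of PtrC2H2ZF1, and 12 had a −log10 q of at least 10.

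**Figure D4:**
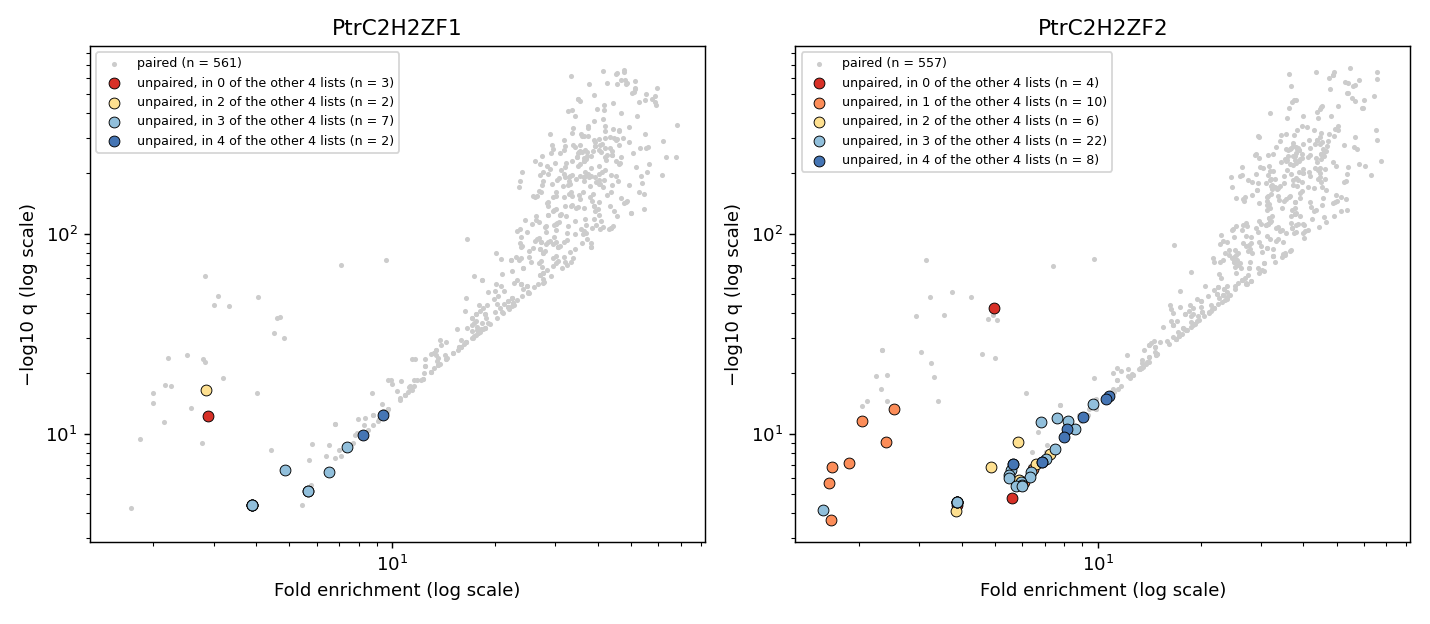
Fold enrichment (x) and −log10 q (y), both log scales, of the paired peaks (grey) and the unpaired peaks (colours, by the number of the other 4 lists with a peak there) of PtrC2H2ZF1 (left) and PtrC2H2ZF2 (right). Unpaired peaks lay at fold enrichments of at most 9.40 and 10.8, most of them in a band where both values rise together and some to the left of it, with a fold enrichment under 3 or, at 4.98, in no other list.

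Peaks that one zinc finger list lacked were mostly present in lists of other TFs. Of the 14 unpaired PtrC2H2ZF1 peaks, PtrARF5a held 11 (78.6%), PtrCORONA 10 (71.4%), PtrNAC127 7 (50%) and PtrBLH 5 (35.7%). Each share was lower than at the 553 pairs, of which these lists held 98.2, 97.8, 95.5 and 96.6%. The lists also differ in size, with 5397, 1159, 681 and 1023 peaks in the same order. The commonest set was PtrARF5a, PtrNAC127 and PtrCORONA together, at 5 of the 14. Both peaks found in all 4 other lists were among the strongest of the 14, with fold enrichments of 9.40 on chromosome 1 (32217298 to 32217601) and 8.21 on chromosome 5 (25091571 to 25091868). On chromosome 8, the site from 6268872 to 6269168 reached 6.52 in PtrC2H2ZF1 and 34.8 in PtrARF5a, where it ranked 25 of 5397. Its fold enrichment was 18.6 in PtrBLH and 19.2 in PtrCORONA, and it had no peak in PtrNAC127 or PtrC2H2ZF2. Such values come from separate libraries, and the ranks from lists of different length, so neither is on a common scale between TFs.

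Of the 50 unpaired PtrC2H2ZF2 peaks, PtrARF5a held 36 (72%), PtrCORONA 33 (66%), PtrNAC127 32 (64%) and PtrBLH 19 (38%). These shares, too, were lower than at the pairs. All 4 other lists held 8 of the 50 and 3 lists held 22, while 4 were in no other list. PtrARF5a, PtrNAC127 and PtrCORONA without PtrBLH was again the commonest set, at 17 of the 50. The unpaired peaks with the highest fold enrichment lay on chromosome 10 from 1667851 to 1668352 (10.8, rank 484) and on chromosome 8 from 5351936 to 5352452 (10.6), and both were in all 4 other lists. The next in order lay on chromosome 9 from 8974470 to 8974987 (9.67), and PtrBLH had no peak there.

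Some of these sites were strong in another list, and the following were chosen after their values had been seen. On chromosome 1, from 13382087 to 13382383, the PtrC2H2ZF2 fold enrichment was 6.86, and that of PtrARF5a was 36.1, at rank 21 of its list. On chromosome 13, from 1061634 to 1061930, PtrC2H2ZF2 had 3.89, PtrNAC127 21.5 and PtrCORONA 16.3. On chromosome 14, an unpaired peak of each zinc finger list stood side by side, from 471382 to 471678 in PtrC2H2ZF1 and from 471682 to 471978 in PtrC2H2ZF2. These were 3 bp apart, had fold enrichments of 3.88 and 3.89, and lay under the same PtrARF5a (7.50), PtrNAC127 (18.2) and PtrCORONA (9.08) peaks, so the 1 bp rule counted a single neighbourhood as unpaired in both lists.

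Among the unpaired PtrC2H2ZF2 peaks, a low fold again went mostly with a PtrBLH peak and without a PtrNAC127 peak. Of the 8 peaks with a fold enrichment under 3, 7 had a PtrBLH peak, 2 a PtrCORONA peak, 1 a PtrARF5a peak and 0 a PtrNAC127 peak. Of the 42 with a fold enrichment of at least 3, 35 had a PtrARF5a peak, 32 a PtrNAC127 peak, 31 a PtrCORONA peak and 12 a PtrBLH peak. The higher significance of the low-fold pairs did not recur. Median −log10 q was 5.73 in the 11 unpaired PtrC2H2ZF2 peaks with PtrBLH and without PtrNAC127. It was 6.69 in the 24 with PtrNAC127 and without PtrBLH. Within 2000 bp of a PtrC2H2ZF1 peak lay 8 of the 50, including the peaks on chromosome 13 from 14787042 to 14787658 (fold enrichment 2.05, −log10 q 11.6) and on chromosome 11 from 7193657 to 7194010 (2.53 and 13.3), both inside the stretches of low peaks given above.

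In no other list were 3 PtrC2H2ZF1 and 4 PtrC2H2ZF2 peaks. The widest and most significant of these 7 was a PtrC2H2ZF2 peak of 1563 bp on chromosome 14, from 5363813 to 5365375, which had a −log10 q of 42.2 at a fold enrichment of 4.98. It was also the most significant unpaired peak of either list. The gene ID of PtrC2H2ZF2 carries the number 14, read here as its chromosome. The study gives such an ID for a gene of Populus trichocarpa, whereas the peaks lie on the Populus tremula × alba genome. Of the 3 PtrC2H2ZF1 peaks, the widest and most significant lay on chromosome 10 from 19876803 to 19877280. It spanned 478 bp and had a −log10 q of 12.3 at a fold enrichment of 2.88, and the PtrC2H2ZF1 gene ID carries the number 10. Reads from the coding sequence in the plasmid, whose ends the primers above mark, and reads from bound chromatin cannot be told apart in such a peak, and a gene annotation was not used here to place the peaks. The other 5 were 297 to 307 bp wide with fold enrichments from 3.88 to 5.68.

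The closeness of the zinc finger lists was set beside that of the other 14 pairs of lists, at the 492 sites where every list had a single peak. Spearman's rho of fold enrichment was 0.976 between the zinc finger lists and between 0.191 and 0.849 in the others. Widths within 5% were found at 92.3% of the sites, against 0.407 to 86.8%, and starts and ends differed by a median of 2 bp, against 4 to 126 bp. The smallest width also differed by list, with 297 bp in both zinc finger lists and 167 bp in PtrARF5a. It was 284 bp in PtrBLH, 290 bp in PtrNAC127 and 288 bp in PtrCORONA. The part of such list-wide differences in the width and edge values was not tested. Summit distances of the zinc finger pair were within the range of the others. Their median of 6 bp was shared with PtrNAC127 and PtrCORONA and the highest among the others was 11 bp, and the share within 10 bp (63.6%) was below that of PtrNAC127 and PtrCORONA (69.5%). All these lists are of 1 library each, the pairs of lists share libraries, and no test of the differences was possible.

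**Figure D5:**
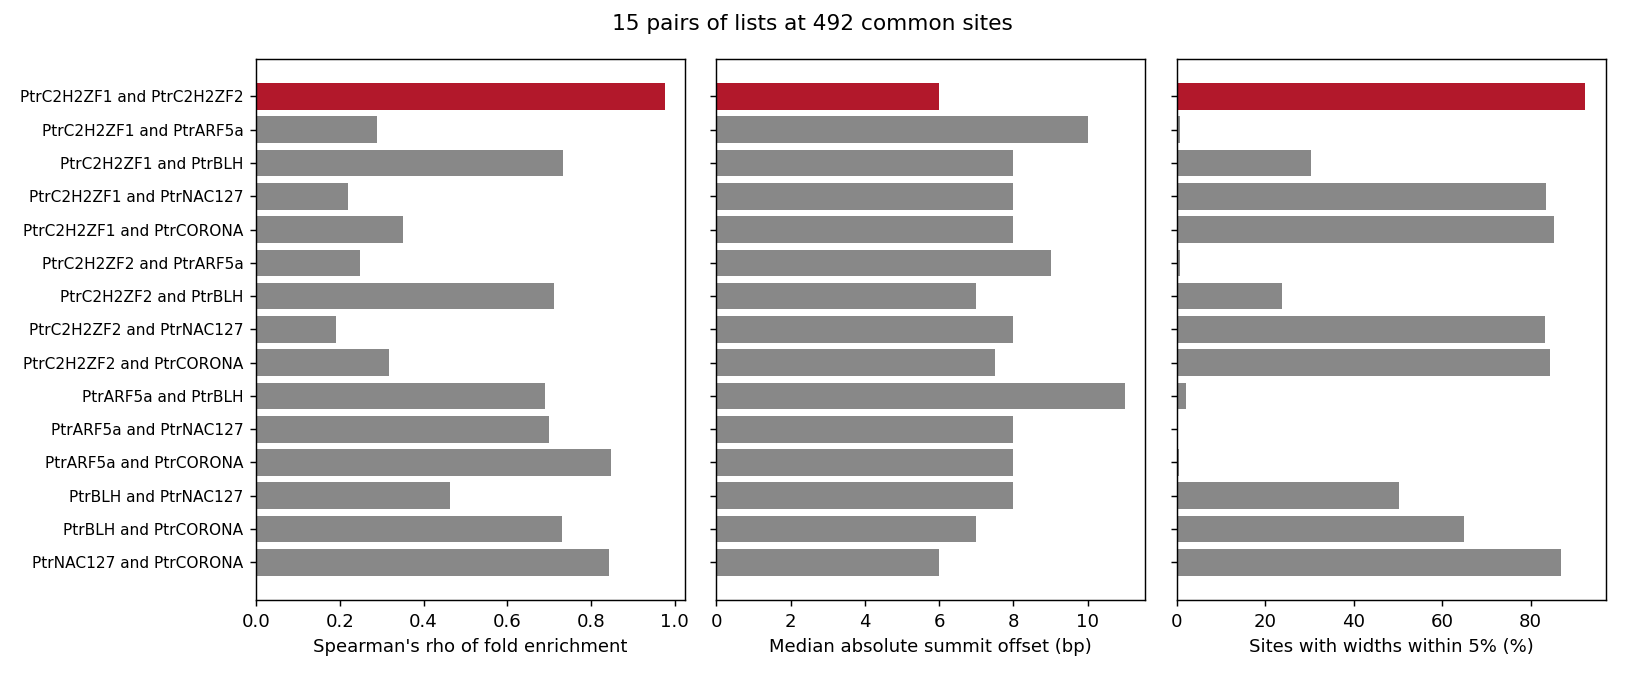
Spearman's rho of fold enrichment (left), median absolute summit offset in bp (middle) and share of sites with widths within 5% (right) for the 15 pairs of lists at 492 common sites, with the zinc finger pair in red. The zinc finger pair had 0.976, 6 bp and 92.3%, and the other pairs ranged from 0.191 to 0.849, from 6 to 11 bp and from 0.407 to 86.8%.

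Among the other TFs, PtrBLH followed the zinc finger order of sites most closely, with rho of 0.733 against PtrC2H2ZF1 and 0.712 against PtrC2H2ZF2. PtrCORONA had 0.350 and 0.319, PtrARF5a 0.289 and 0.249, and PtrNAC127 0.220 and 0.191. In width the order was different, since PtrCORONA and PtrNAC127 widths were within 5% of PtrC2H2ZF1 at 85.4 and 83.5% of the sites and PtrBLH widths at 30.3%. The peak names of PtrBLH, PtrNAC127 and PtrCORONA carry a numeric tag that those of both zinc finger lists and PtrARF5a lack. Whether the lists with and without the tag were processed differently is not stated by the study, and its part in these values was not tested. Coordinates agreed between tagged and untagged lists, since the PtrC2H2ZF1 summits lay a median of 8 bp from those of each of the 3 tagged lists.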

How the data were processed

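Peak lists of 6 ChIP-seq libraries, 1 per TF, were used, and the sample of input chromatin has no peak list analysed here. The authors trimmed reads with Trimmomatic, aligned them with Bowtie2 to the Populus tremula × alba 717-1B4 genome, removed poorly mapped and duplicate reads with SAMtools, and called peaks separately in each library with MACS2 (2.1.0 in the submitters' processing notes). The deposited columns are positions and a summit offset from the start, a fold enrichment (a ratio to the control, as the authors' caller gave it), −log10 values of p and q, and a whole-number score. The score and the p-value (deposited, not analysed here) entered no result. Sequencing depth is stated by the study only as a rough figure common to the samples, before mapping, and the reads left per library after filtering are unknown here. MACS2 sets fold and q against the local control, and the effect of depth and input on the lists was not tested.

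Start coordinates were counted from 1. Peaks sharing at least 1 bp were paired, and groups with several peaks of a list were kept apart from the 553 pairs. Offset, width ratio and rank of fold enrichment were computed per pair. Shares have exact (Clopper-Pearson) 95% intervals, and medians have 95% intervals from order statistics. No test was run, since sites of 1 library are not replicates. Alternatives were an overlap of 50% of both peaks, summits within 100 bp, a −log10 q of at least 10, chromosomes only, the longest overlap of each merged group, and ranks by −log10 q. Named were the 5 pairs with the best mean rank, the 5 largest rank shifts each way, offsets and width ratios each way, all merged groups, all unpaired PtrC2H2ZF1 peaks and the 15 unpaired PtrC2H2ZF2 peaks with the largest −log10 q, or some of these. Other peaks were chosen once their values were known, among them the pair in no other list and the unpaired PtrC2H2ZF2 peaks on chromosomes 1 (13382087), 13 (1061634) and 14 (471682). The lists compared and this rule were chosen with earlier results of these data known. The pairing code was tested on simulated lists. Computation used Python 3.11.15 with scipy 1.17.1, pandas 2.3.3 and numpy 2.4.6, and figures matplotlib 3.10.9. Gene features and motifs at peaks were not analysed here. Primer sequences and gene IDs are those given by the study.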

Additional observations from a re-analysis of the deposited data

How the results depend on the processing

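The 8 results were recomputed under 34 alternatives in all, and 28 gave a value close to the main one (a count within 1.5 times, or a median or rho inside the 95% interval of the main value). For rho that interval came from Fisher's z, with the pairs taken as independent. They are not, so it served only as a limit of closeness. Paired and unpaired counts of a list are complements and not separate results, and the large paired counts could hardly change by 1.5 times. With summits within 100 bp, the paired PtrC2H2ZF1 count of 535 was therefore called close, although the unpaired count was not. The number of unpaired PtrC2H2ZF1 peaks depended most on the rule, with 14 at 1 bp of overlap, 25 when 50% of both peaks had to overlap, 40 when summits had to lie within 100 bp, and 9 when only peaks with a −log10 q of at least 10 were used in both lists. With that same limit on q, the unpaired PtrC2H2ZF2 peaks went from 50 to 26, of which some had a PtrC2H2ZF1 partner below the limit. Merged groups went from 4 to 0 at 50% overlap, which by construction 2 separate peaks under a longer one cannot both meet. Ranking by −log10 q gave a rho of 0.992 in place of 0.981. The median summit offset was 6 to 7 bp under its 4 alternatives. No paired analysis was possible because each TF has 1 library and the results come from no test. Every unpaired peak ranked below 400 in its list by fold enrichment, and the part of depth in this was not tested. A site without binding and a site missed by the caller cannot be told apart.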
